A study of Mus musculus with 27 samples.

Results

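Expression of 10 genes of prostaglandin biology was followed through osteoblast differentiation of mouse calvarial cells: the cyclooxygenases Ptgs1 and Ptgs2, the terminal synthases Ptges, Ptgis and Ptgds, the prostaglandin E2 receptors Ptger1, Ptger2, Ptger3 and Ptger4, and the breakdown enzyme Hpgd. They were taken by name as 10 of the 37991 genes quantified in every profile, and all 10 were among the 15659 genes with enough counts to be tested. The 10 were selected on their levels (TPM and counts) by day in these same libraries, whose results were known when the list was drawn up, so the change of these 10 genes with day is given as a description, and the calls of the fitted line for them are printed once, beside the share over all genes, and support nothing. The cells came from the calvaria, the flat bones of the skull vault, of neonatal C57BL/6J-Col3.6 CFP mice aged 5 to 9 days, which carry cyan fluorescent protein under the Col3.6 promoter, a fragment of a type I collagen promoter. Cells positive for the protein were sorted after a first 4 days in culture, a gate that collagen-producing cells other than osteoblasts can also pass, and all were then grown in ascorbic acid and beta-glycerol phosphate. RNA was sequenced at 9 time points, days 2, 4, 6, 8, 10, 12, 14, 16 and 18, with 3 profiles each, 27 profiles in all. The paper describes the samples of a time point as triplicates. The 3 profiles of a day carry 1 barcode, however, so each day is 1 library with no replicate. Every SD over 3 profiles below therefore covers sequencing and quantification only.

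Prostaglandins are short-lived lipid signals. Phospholipases free arachidonic acid from membranes, the cyclooxygenases turn it into prostaglandin H2, and a terminal synthase then sets which prostaglandin is made. Ptgs1 is usually described as the constitutive cyclooxygenase and Ptgs2 as the inducible one, switched on by cytokines, growth factors and mechanical strain. In bone, prostaglandin E2 is made by osteoblasts and is known both to stimulate bone formation and, through osteoblasts, to promote osteoclast formation. Its receptors are coupled to different second messengers, Ptger2 and Ptger4 to cyclic AMP production, Ptger3 mainly to its inhibition and Ptger1 to calcium. Hpgd, 15-hydroxyprostaglandin dehydrogenase, inactivates prostaglandins.

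In these cells the step that makes prostaglandin H2 was highest at the start and the enzyme that inactivates prostaglandins was highest at the end. Between the first and the last day Ptgs2 went from 361.5 to 1.81 TPM, whereas Hpgd went from 0.359 to 22.2 TPM. Ptgds, which makes prostaglandin D2, was read by 1 to 3 counts a day up to day 8 and by 399 to 500 counts a day from day 12. Levels are given in TPM, a relative transcript abundance per unit of transcript length, after each profile was scaled by its upper quartile. In bulk RNA, fewer cells of a type and less RNA per cell cannot be told apart.

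The promoters of the 4 genes with the widest change (Ptgs2, Ptgds, Ptger3 and Hpgd) and of Ptgs1, the counterpart of Ptgs2, are shown so that the start of each gene can be read beside its time course. The sequences are those of RefSeq, from a table built on GRCm38.p6 that held 8 of the 10 genes, and each matched the NCBIM37 genome exactly once, at the coordinates given. Each run is the 250 bases before the RefSeq transcription start, read 5′ to 3′ on the strand of the gene, and for Ptgs2 also the first 50 bases after it. The runs of Ptgs1, Ptger3 and Hpgd lie before the first annotated base of the gene and in no annotated exon. The whole Ptgs2 window lies upstream of the first base of the gene in the annotation of the files, chr1:151947254, and 94 of its 300 bases are in an exon of 7530420F21Rik on the opposite strand. The Ptgds window lies inside the annotated gene, whose first annotated base is further upstream, and its last 93 bases are exonic in one transcript and are not printed. The 157 bases shown are intronic. Capitals mark the matches to the motifs named below.
Ptgs1, chr2:36085696-36085945, plus strand: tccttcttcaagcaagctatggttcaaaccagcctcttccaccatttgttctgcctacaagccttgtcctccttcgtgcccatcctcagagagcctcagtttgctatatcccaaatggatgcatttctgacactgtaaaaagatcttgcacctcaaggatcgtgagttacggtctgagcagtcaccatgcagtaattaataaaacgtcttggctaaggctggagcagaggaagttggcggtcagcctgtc
Ptgs2, chr1:151946911-151947210, plus strand: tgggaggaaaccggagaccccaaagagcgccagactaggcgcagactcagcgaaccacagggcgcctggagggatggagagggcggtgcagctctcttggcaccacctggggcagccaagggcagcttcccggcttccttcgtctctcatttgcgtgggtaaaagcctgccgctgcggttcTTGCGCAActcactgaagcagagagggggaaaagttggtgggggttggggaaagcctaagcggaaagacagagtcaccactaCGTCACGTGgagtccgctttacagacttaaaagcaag
Ptgds, chr2:25325363-25325519, minus strand: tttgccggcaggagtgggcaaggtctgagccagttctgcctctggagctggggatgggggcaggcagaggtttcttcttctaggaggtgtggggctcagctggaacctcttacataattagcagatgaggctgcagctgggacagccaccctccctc
Ptger3, chr3:157229590-157229839, plus strand: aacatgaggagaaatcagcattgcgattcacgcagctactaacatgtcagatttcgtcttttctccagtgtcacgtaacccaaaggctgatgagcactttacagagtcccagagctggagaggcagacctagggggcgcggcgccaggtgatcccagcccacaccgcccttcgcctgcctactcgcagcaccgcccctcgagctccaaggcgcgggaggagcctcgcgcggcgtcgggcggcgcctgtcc
Hpgd, chr8:58773099-58773348, plus strand: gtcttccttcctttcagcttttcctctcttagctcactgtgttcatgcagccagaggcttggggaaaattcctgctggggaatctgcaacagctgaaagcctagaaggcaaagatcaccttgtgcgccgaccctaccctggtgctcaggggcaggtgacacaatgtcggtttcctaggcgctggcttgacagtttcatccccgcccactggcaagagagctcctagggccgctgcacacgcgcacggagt

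A set of 7 short motifs was searched on both strands of the 300-base windows: the cyclic AMP response element TGACGTCA and its core CGTCA, which lies within it, the TATA box TATAAA, the C/EBP palindrome TTGCGCAA, the E-box CACGTG, the AP-1 site TGANTCA and the NF-kappaB site. The Ptgs2 window held the C/EBP palindrome, 69 to 62 bases before the start. That palindrome occurred in 60 of the 32851 windows of the table (0.183%). The Ptgs2 window also held CGTCA 14 to 18 bases after the RefSeq start (20.8% of windows) and an E-box 17 to 22 bases after it (7.15%). These 2 matches overlap, and both lie upstream of the first base of the gene in the annotation of the files. In the Ptgds window an AP-1 match stood 35 to 29 bases before the start, in the exonic bases not printed, against 7.81% of windows. Hpgd had a TATA box match 5 to 10 bases after the start, beyond the bases printed (13.6% of windows), and the windows of Ptgs1 and Ptger3 held no match to any of the 7 motifs. A match describes letters and is not evidence of binding.

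Ptgs1, the constitutive cyclooxygenase (ENSMUSG00000047250, NCBIM37 chr2:36085946-36107792, plus strand), was at 30 TPM (day 2), 52.0 (day 4), 56.3 (day 6), 35.5 (day 8), 21.9 (day 10), 23.4 (day 12), 19.1 (day 14), 17.9 (day 16) and 19.2 (day 18). It was highest on days 4 and 6 and lowest from day 14, where the 3 days lay between 17.9 and 19.2 TPM, and the ranges of days 2 to 6 and 14 to 18 did not overlap. Days 14 and 18, neighbours in level, differed by less than the SD over profiles (0.882 and 0.863 TPM). From days 2 to 6 to days 14 to 18 its CPM, counts scaled to the total of the library, were 2.68-fold lower (95% interval 2.58 to 2.78, counting error only), with 9438 counts early and 3866 late. On the fitted line the log2 change between the first and the last day was -1.64 (SE 0.34). A straight line does not follow the rise to day 6. Measured directly, CPM on day 18 were 1.80-fold lower than on day 2 (1.68 to 1.94, counting error only), a smaller fall than the line gives.

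Ptgs2, the inducible cyclooxygenase (ENSMUSG00000032487, chr1:151947254-151955140, plus strand), followed another course. Its level was 361.5 TPM (day 2), 240.2 (day 4), 90.8 (day 6), 35.6 (day 8), 3.74 (day 10), 3.502 (day 12), 2.42 (day 14), 2.43 (day 16) and 1.81 (day 18). Every day up to day 8 lay above every later day, and among the later days 10 and 12, and 14 and 16, differed by less than the larger of their SDs over profiles (0.515 and 0.294 TPM). Among the genes with a value above 0 it ranked at percentile 98.2 in level on day 2 and at percentile 30.4 on day 18. Its summed counts were 40660 (day 2), 2831 (day 8), 218 (day 10) and 188 (day 18), so CPM were 227-fold lower on day 18 than on day 2 (95% interval 197 to 264, counting error only). The largest single step was from day 8 to day 10, at 9.80-fold lower (8.54 to 11.3). Between those days 30 of the 15659 tested genes fell further on the log2 scale. That step was also the widest over all genes, with a median size of 0.29 log2 units against 0.17 to 0.25 for the other 7 steps, and the day 10 library had the fewest counts (22470195). On the fitted line, the log2 change of Ptgs2 from day 2 to day 18 was -8.57 (SE 0.87), and 11 tested genes had a larger fall.

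The make-up of the cyclooxygenase step shifted from Ptgs2 to Ptgs1. Ptgs2 made up 92.3% of their summed TPM on day 2 (SD 0.131 over 3 profiles), 82.2% on day 4, 61.7% on day 6 and 50.1% on day 8 (SD 2.45). From day 10 to day 18 its share lay between 8.61% and 14.5%. The summed level of the pair was 391.5 TPM (day 2), 71.1 (day 8) and 21.03 (day 18). The 2 enzymes are close relatives, and no read was divided between them: aligned over 1755 coding bases they were identical at 66.5%, the longest identical stretch was 14 bases, and neither gene had a fractional count, the sign of a read divided between genes, in any of the 27 profiles.

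**Figure D1:**
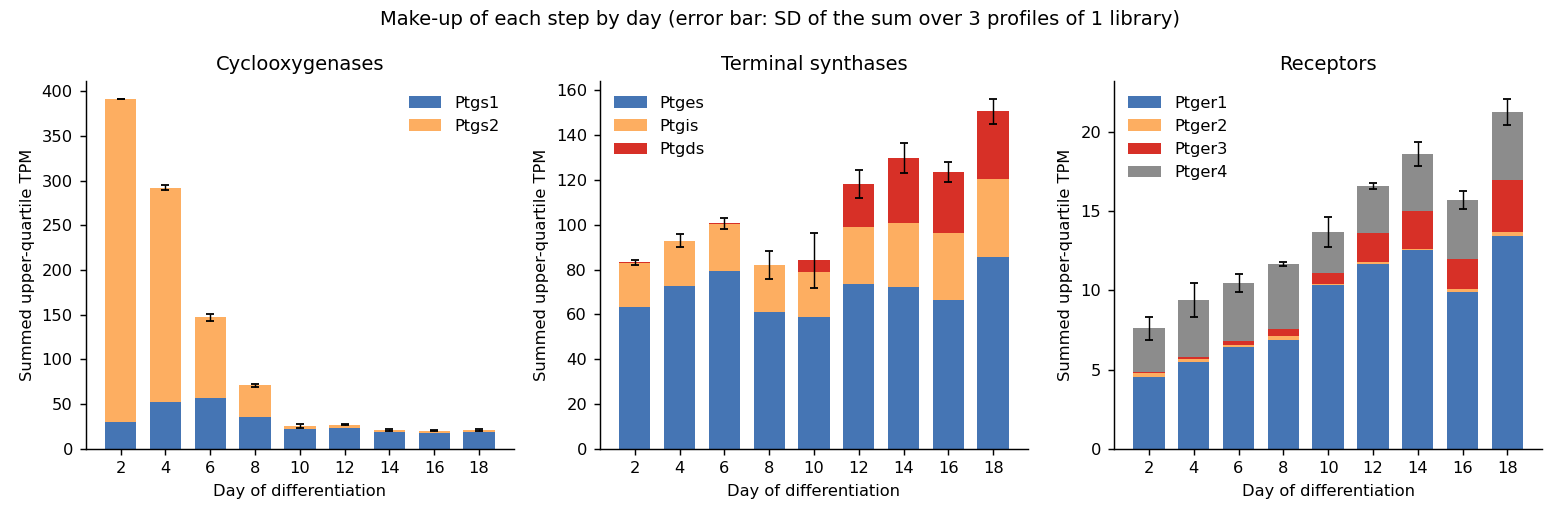
Summed upper-quartile TPM of the cyclooxygenases, the terminal synthases and the prostaglandin E2 receptors (vertical axes) by day of differentiation (horizontal axes), stacked by gene, with the SD of the sum over the 3 profiles of 1 library as the error bar. The cyclooxygenase total falls from 391.5 TPM at the first time point to 21.03 TPM at the last as Ptgs2 leaves it, whereas Ptgds enters the synthases on day 10 and Ptger1 is the tallest block of the receptors on every day.

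Among the terminal synthases, Ptges makes prostaglandin E2 and was the most abundant of the 3 on every day. Ptges, the microsomal prostaglandin E synthase (ENSMUSG00000050737, chr2:30744991-30785383, minus strand), was at 63.4 TPM (day 2), 72.5 (day 4), 79.4 (day 6), 61.1 (day 8), 58.7 (day 10), 73.3 (day 12), 72.3 (day 14), 66.2 (day 16) and 85.5 (day 18). Its highest day was 1.46-fold above its lowest, early and late days overlapped, and the fitted log2 change was 0.10 (SE 0.13). The effective length that RSEM gave this gene, an average over its 5 annotated transcripts, was not the same in every library, which enters the TPM but not the counts. In CPM, days 14 to 18 were at 0.952 of days 2 to 6 (95% interval 0.919 to 0.987, counting error only).

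Ptgis (ENSMUSG00000017969, chr2:167017305-167066104, minus strand) makes prostacyclin, a vasodilator. It was at 19.7 TPM (day 2), 20.4 (day 4), 20.9 (day 6), 20.95 (day 8) and 20.0 (day 10), and then at 25.8 (day 12), 28.6 (day 14), 30.3 (day 16) and 35.1 (day 18). The first 5 days lay between 19.7 and 20.95 TPM, close to one another beside their SDs over profiles (0.267 to 1.16 TPM). All 4 later days lay above them in TPM. In CPM the step from day 10 to day 12 was not separated beyond counting error (ratio 1.1, interval 0.998 to 1.21). Day 8 stood at 26.0 CPM and day 12 at 26.7. Days 14 to 18 were at 1.35-fold the CPM of days 2 to 6 (1.29 to 1.42, counting error only). The fitted log2 change of Ptgis was 0.70 (SE 0.13).

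Ptgds, the lipocalin-type prostaglandin D synthase (ENSMUSG00000015090, chr2:25322229-25325566, minus strand), is best known from the leptomeninges, the membranes around the brain, and from fat and heart. It had 1 count (day 2), 2 (day 4), 3 (day 6) and 1 (day 8), all at or under the floor of 3 counts, followed by 51 (day 10), 399 (day 12), 452 (day 14), 500 (day 16) and 476 (day 18). In TPM the first 4 days lay between 0.0957 and 0.215, day 10 was at 5.44, day 12 at 19.0, day 14 at 29.0, day 16 at 26.96 and day 18 at 30.2. The profile was thus near zero to day 8 and level from day 14, where neighbouring days differed by less than their SDs over profiles (3.06 to 3.70 TPM). From day 8 to day 10 CPM were 67.6-fold higher, with a counting interval of 11.6 to 2721 that reflects the single count on day 8, and 3 tested genes rose further in that step. Over days 14 to 18 CPM were 217-fold those of days 2 to 6 (99.4 to 592, from 6 and 1428 counts). The fitted log2 change of 9.57 (SE 1.48) depends on how counts near 0 are treated, and 30 tested genes had a larger rise.

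Ptgds accounted for 0.117% of the summed TPM of the 3 synthases on day 2 and for 20.0% on day 18 (SD 2.29), with its highest share, 22.3%, on day 14. Ptges went from 76.2% to 56.7% over the same span and Ptgis from 23.7% to 23.3%. The sum of the 3 went from 83.2 TPM at the first time point to 151 TPM at the last, opposite in direction to the cyclooxygenases upstream of them.

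**Figure D2:**
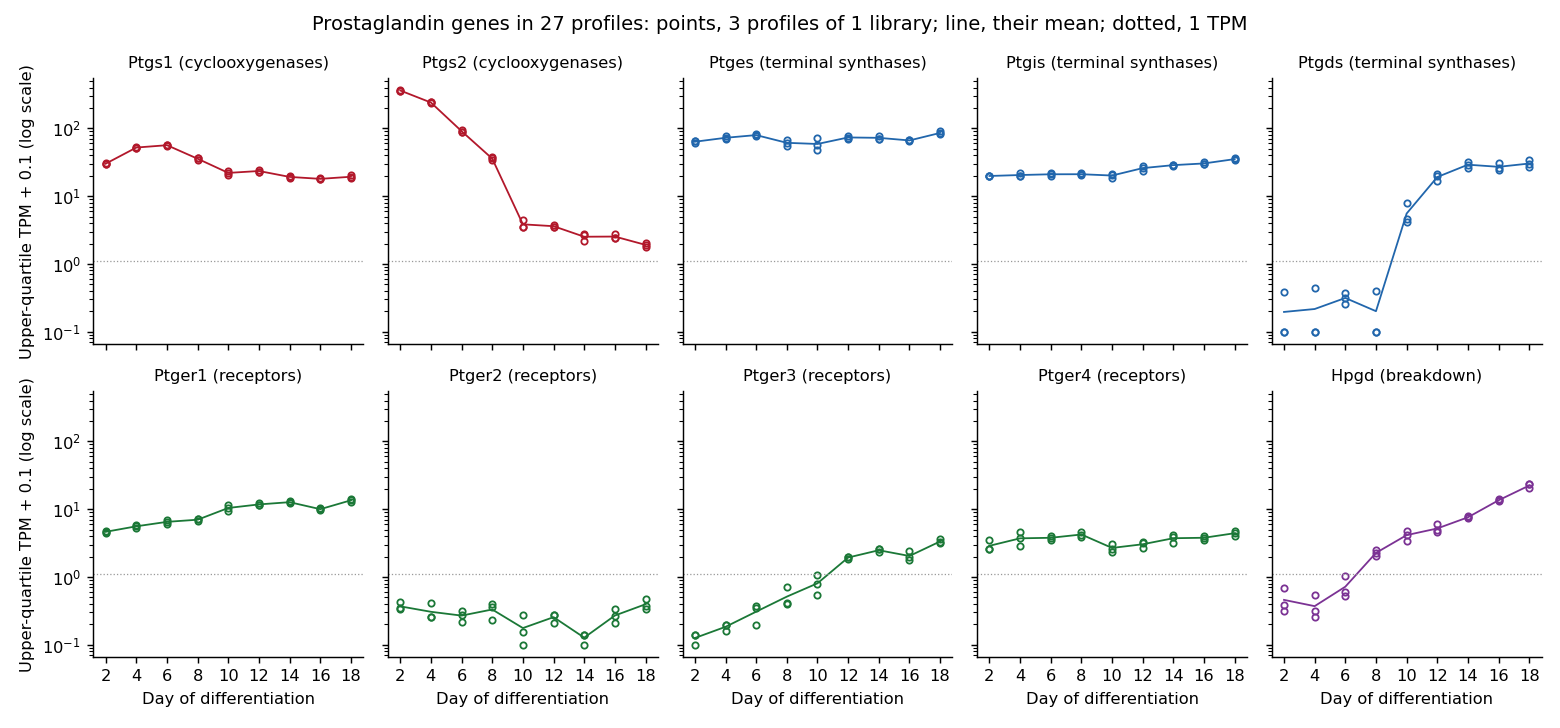
Upper-quartile TPM plus 0.1 on a log scale (vertical axes) against day of differentiation (horizontal axes) for each of the 10 genes, where open circles are the 3 profiles of 1 library, the line is their mean and the dotted line marks 1 TPM. Ptgs2 drops from 361.5 to 1.81 TPM, Ptgds, Ptger3 and Hpgd climb from below 1 TPM, Ptges and Ptger4 stay near their starting level, and Ptger2 stays below 1 TPM on all 9 days.

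The prostaglandin E2 receptors were all less abundant than Ptges, which makes their ligand, and they differed in course. Ptger1, the calcium-coupled receptor (ENSMUSG00000019464, chr8:86190732-86196652, plus strand), was the most abundant of the 4 on every day. It was at 4.53 TPM (day 2), 5.49 (day 4), 6.40 (day 6), 6.89 (day 8), 10.3 (day 10), 11.7 (day 12), 12.6 (day 14), 9.90 (day 16) and 13.4 (day 18). Days 2 to 8 lay below days 10 to 18, and the fitted log2 change was 1.47 (SE 0.23). Its value is uncertain, because the gene had fractional counts, from reads that RSEM divided, in 26 of 27 profiles.

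Ptger2, one of the cyclic AMP-coupled pair (ENSMUSG00000037759, chr14:45607870-45623495, plus strand), was close to absent. It had 27, 20, 17, 16, 4, 19, 2, 18 and 27 counts on days 2 to 18, 150 in all, and reached at most 0.296 TPM. Its highest days were the first and the last, early and late days overlapped, and it reached 1 TPM on no day. The fitted log2 change was -0.44 (SE 0.83).

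Ptger4, the other cyclic AMP-coupled receptor (ENSMUSG00000039942, chr15:5156661-5194187, minus strand), kept within 2.58 TPM (day 10) and 4.32 TPM (day 18). It was at 2.78 TPM (day 2), 3.61 (day 4), 3.68 (day 6), 4.13 (day 8), 2.93 (day 12), 3.63 (day 14) and 3.69 (day 16). Early and late days overlapped and the fitted log2 change was 0.18 (SE 0.24). The SD over profiles was 0.213 to 0.874 TPM, and neighbouring days were separated beyond counting error only from day 2 to 4, day 8 to 10 and day 12 to 14. It had fractional counts in 19 profiles, and 1015 of its 6648 exon bases (15.3%) lie in an opposite-strand gene, Gm15937, which had 78 counts in all. Another 82 exon bases lie in Ttc33, also on the opposite strand, with 3817 counts in all. Whether the libraries kept the strand is not given in the sources used here, and without it reads of these genes in the shared stretches cannot be told apart.

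Ptger3, the receptor that lowers cyclic AMP (ENSMUSG00000040016, chr3:157229856-157307722, plus strand), was the receptor with the widest change. It had 2 counts (day 2), 6 (day 4), 18 (day 6), 28 (day 8), 29 (day 10), 181 (day 12), 197 (day 14), 151 (day 16) and 245 (day 18). In TPM these were 0.0256, 0.0837, 0.207, 0.412, 0.706, 1.83, 2.38, 1.94 and 3.24 for days 2 to 18. It first reached 1 TPM on day 12, and every day from day 12 lay above every earlier day. CPM over days 14 to 18 were 20.8-fold those of days 2 to 6 (95% interval 14.0 to 32.1, counting error only), and the fitted log2 change was 6.03 (SE 0.74).

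Of the summed TPM of the 4 receptors, Ptger1 held 59.8% on day 2 and 63.1% on day 18. Ptger3 went from 0.328% to 15.2% (SD 1.07), and Ptger2 and Ptger4 went from 3.51% to 1.39% and from 36.3% to 20.3%. From day 10 Ptger4 was at 17.7% to 23.5% of the sum, against 35.2% to 38.1% up to day 8. The coding sequences of the 4 receptors were identical at 58.9% to 66.6% of aligned bases, with Ptger2 and Ptger4 the closest pair, and no identical stretch exceeded 15 bases.

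Hpgd, which oxidises prostaglandins to inactive products (ENSMUSG00000031613, chr8:58773349-58799843, plus strand), was at 0.359 TPM (day 2), 0.271 (day 4), 0.618 (day 6), 2.17 (day 8), 4.04 (day 10), 5.09 (day 12), 7.49 (day 14), 13.4 (day 16) and 22.2 (day 18). After day 4 each day lay above the one before, although days 10 and 12 were not separated beyond counting error (88 and 263 counts, a ratio of CPM of 1.08 with a 95% interval of 0.848 to 1.39). Counts were 15 on day 2 and 861 on day 18. Days 14 to 18 were at 30.8-fold the CPM of days 2 to 6 (23.4 to 41.4, counting error only), and the fitted log2 change was 6.23 (SE 0.46). Up to day 16 the cyclooxygenases together exceeded Hpgd in TPM on every day, and on day 18 Hpgd stood at 22.2 TPM beside 21.03 TPM for the pair, a difference within the SD of Hpgd over profiles (1.48 TPM).

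Counted over the 10 genes, 5 were higher with day (Ptgis, Ptgds, Ptger1, Ptger3 and Hpgd), 2 were lower (Ptgs1 and Ptgs2) and 3 were not called (Ptges, Ptger2 and Ptger4) by the line in day, at an adjusted p under 0.05 in edgeR. Over all genes tested the same rule called 54.3%, 28.3% higher and 26.1% lower, and nothing is read from the count of members, whose choice used these values. The ranges of days 2 to 6 and days 14 to 18 did not overlap for the same 7 genes, against 58.0% of all genes tested (32.4% higher late and 25.6% lower late). The median log2 change over all genes was 0.05, with 5% of genes below -2.11 and 5% above 3.88. By mean TPM over the 9 days the order was Ptgs2 (82.4), Ptges (70.3), Ptgs1 (30.6), Ptgis (24.6), Ptgds (12.3), Ptger1 (9.02), Hpgd (6.19), Ptger4 (3.48), Ptger3 (1.202) and Ptger2 (0.178). Without day 2 the mean of Ptgs2 was 47.6 TPM, below that of Ptges at 71.1. Of the 10, 6 reached 1 TPM on all 9 days.

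The 3′ untranslated part of each gene was searched for ATTTA, the DNA spelling of the AUUUA pentamer of AU-rich elements, which RNA-binding proteins recognise in short-lived messages. Ptgs2 had 12 copies in 2228 bases, 5.39 per kilobase, more per kilobase than 94.9% of the 13326 genes with such a part. Ptgs1 had 0 in 921 bases. Hpgd had 4, Ptger4 5, Ptger2 6 and Ptger3 7, while Ptges, Ptgis, Ptgds and Ptger1 had 0, beside a median of 2 over all genes. The genes with the pentamer thus included the one with the largest fall as well as 2 of the largest rises among the 10.

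For each gene the 2 other genes with the most similar course over the 9 days were found among 7594 genes with a mean of at least 10 TPM, by the root mean square difference of their centred log2 CPM. Closest to Ptgs2 were Coch, a secreted protein known from the inner ear, with a difference of 0.628 log2 units, and Ppbp, a platelet chemokine, with 0.777. Coch was at 55.1 TPM on day 2 and 0.296 on day 18, and Ppbp at 40.1 and 0.515. Closest to Ptgds were Gm11428 (0.435) and the acute-phase protein haptoglobin, Hp (0.703), both below 1 TPM up to day 8 and at 245 and 33.8 TPM on day 18. For Hpgd they were osteomodulin, Omd, a proteoglycan of mineralized matrix (0.248), and Gdf10, a growth factor of the bone morphogenetic protein family (0.332). Omd went from 1.77 to 71.7 TPM and Gdf10 from 2.03 to 99.8 TPM between days 2 and 18.

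The other genes were matched in the same way. C1qtnf7 (0.271) and Cpxm2 (0.346) were closest to Ptger3, and Loxl3 (0.147), a lysyl oxidase, and Tcirg1 (0.149), a proton pump subunit, to Ptgs1. Ptgis was closest to Xbp1 (0.051), a secretory pathway transcription factor, and to Cxx1b (0.065), and Ptger1 to Dennd1a (0.063) and Os9 (0.082). The nearest were also Ndor1 (0.053) and Ccdc97 (0.059) to Ptges, Snap47 (0.105) and Lsp1 (0.125) to Ptger4, and Dcun1d5 (0.512) and Sec11c (0.565) to Ptger2, whose profile rests on 150 counts.

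**Figure D3:**
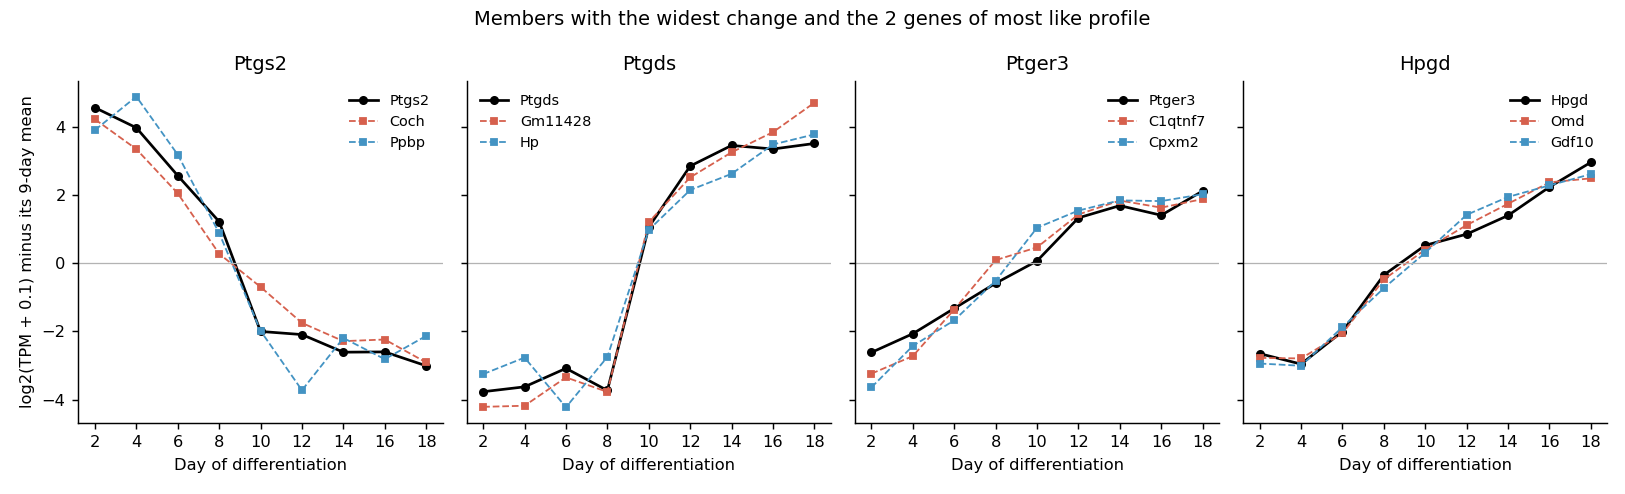
Centred log2(TPM + 0.1) (vertical axis) by day (horizontal axes) of Ptgs2, Ptgds, Ptger3 and Hpgd in black, each with the 2 genes of most similar course as dashed lines, every point the mean of 3 profiles of 1 library. Ptgds and Gm11428 share the step between days 8 and 10, and Omd and Gdf10 rise steadily with Hpgd.

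The pathway around the 10 genes was read from 7 lists of 61 other genes, of which 50 passed the filter on low counts. Of these 14 were called higher with day, 14 lower and 22 were not called, 28 of 50 beside 54.3% of all genes, with a median log2 change of -0.12 beside 0.05. The lists hold none of the 10 genes, and adjusted p-values come from the quasi-likelihood test in edgeR, adjusted by Benjamini-Hochberg over all 15659 genes.

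Upstream of the cyclooxygenases, arachidonate release had 10 genes with 6 tested, 0 higher and 3 lower, although Mgll, a monoacylglycerol lipase named after its values were seen, was called higher without day 2. Pla2g4a, the cytosolic phospholipase A2 that supplies arachidonic acid to the cyclooxygenases, fell from 83.5 TPM on day 2 to 42.8 on day 8 and 12.6 on day 18 (log2 change -3.09, SE 0.31, adjusted p = 4.84e-05). Anxa1, annexin A1, known as an inhibitor of phospholipase A2, fell from 951 to 563 TPM (-1.33, SE 0.24, adjusted p = 0.000925). Pla2g6, a calcium-independent phospholipase, fell from 7.09 to 5.30 TPM (-0.59, SE 0.20, adjusted p = 0.0272), a call that was lost without day 2, day 4 or day 16 (adjusted p = 0.0839, 0.0588 and 0.0511, edgeR). Pla2g4a and Ptgs2 were thus both highest on the first day.

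Of the 7 other prostanoid synthases, all tested, 4 were higher and 1 was lower, though 2 were higher without replicate 1, day 6, day 16 or day 18. Hpgds, the haematopoietic prostaglandin D synthase, rose from 0.270 TPM on day 2 to 7.21 on day 18 (log2 change 5.47, SE 0.47, adjusted p = 2.33e-05), with 0.488 TPM on day 12, when Ptgds was already at 19.0. Cbr1, a carbonyl reductase that can convert prostaglandin E2 to F2alpha, rose from 14.5 to 46.7 TPM (1.51, SE 0.19, adjusted p = 0.000145). Ptges3, the cytosolic prostaglandin E synthase and a chaperone partner of Hsp90, fell from 191 to 123 TPM (-0.82, SE 0.18, adjusted p = 0.0033). The 2 routes to prostaglandin D2, by Ptgds and by Hpgds, thus differed in the day on which they first reached 1 TPM, day 10 and day 14.

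Transport and breakdown had 4 genes, of which 1 was higher and 2 were lower. Slco2a1, the carrier that takes prostaglandins up for breakdown, fell from 45.3 TPM on day 2 to 8.25 on day 18 (log2 change -2.54, SE 0.50, adjusted p = 0.00166), the opposite direction to Hpgd. Ptgr1 and Ptgr2, which reduce the products of Hpgd, moved apart: Ptgr1 fell from 21.4 to 9.77 TPM (-1.48, SE 0.16, adjusted p = 7.64e-05) and Ptgr2 rose from 11.9 to 22.3 TPM (0.93, SE 0.15, adjusted p = 0.000489).

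Receptors for other prostanoids had 5 genes with 4 tested, 3 higher and 0 lower. Ptgfr, the prostaglandin F receptor, rose from 0.147 TPM on day 2 to 7.00 on day 18, with its highest level, 14.5, on day 10 (log2 change 4.36, SE 0.73, adjusted p = 0.000683). Ptgdr, a receptor of prostaglandin D2, rose from 0.0255 to 1.72 TPM (4.65, SE 0.91, adjusted p = 0.00162), and Tbxa2r, the thromboxane receptor, from 4.6 to 8.28 TPM (1.43, SE 0.38, adjusted p = 0.00952). Ptgir, the prostacyclin receptor whose ligand Ptgis makes, was at 1.90 TPM on day 2 and 2.44 on day 18 and was not called.

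The leukotriene branch, the other fate of arachidonic acid, had 9 genes with 7 tested, 3 higher and 1 lower. Alox5ap, the activating protein of 5-lipoxygenase, rose from 1.12 to 16.6 TPM (log2 change 3.74, SE 0.38, adjusted p = 5.16e-05), and Cysltr1 and Ltc4s, a leukotriene receptor and a leukotriene synthase read by 139 and 72 counts in all, rose from below 0.1 TPM to 1.08 and 2.01 TPM (adjusted p = 0.00278 and 0.00281, edgeR). Ltc4s fell under the filter on low counts, and was not tested, in 7 of the 19 alternatives, among them those without replicate 1, 2 or 3, day 14 or day 18. The lower call, Ltb4r1, rested on 93 counts and was lost without day 2, day 4 or day 6, without replicate 1 or 3 and under a spline in day.

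Of 12 genes that respond to cyclic AMP, the messenger of Ptger2 and Ptger4, 11 were tested, 2 were higher and 2 lower. Rgs2, a regulator of G protein signalling, rose from 2.47 to 65.5 TPM (4.12, SE 0.45, adjusted p = 7.63e-05) and Nr4a2, an orphan nuclear receptor, from 5.43 to 13.3 TPM (0.98, SE 0.22, adjusted p = 0.0034). Pde4d, a phosphodiesterase that degrades cyclic AMP, fell from 11.5 to 5.93 TPM (-1.45, SE 0.19, adjusted p = 0.000171). The lower count was 4 under a spline in day and 5 with the 27 profiles as samples, which treats profiles of 1 library as replicates.

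Inducers and regulators of Ptgs2 had 14 genes with 11 tested, 1 higher, 5 lower and 5 not called. The higher one, Nfkb1, rose from 23.6 TPM on day 2 to 38.9 on day 18 (log2 change 0.55, SE 0.17, adjusted p = 0.0164, edgeR). That call was lost without day 2. Egr1, which was not called, was at 83.7 TPM on day 2 and 86.65 on day 18. Nfkb1 and Egr1 were named after their values were seen. The growth factor gene Pdgfa fell from 60.0 TPM on day 2 to 28.9 on day 18 (log2 change -1.27, SE 0.18, adjusted p = 0.000259), and Cebpd, a C/EBP transcription factor, from 11 to 6.68 TPM (-1.32, SE 0.23, adjusted p = 0.00077). Elavl1, the AU-rich element binding protein HuR, fell from 18.2 to 11.7 TPM (-0.77, SE 0.13, adjusted p = 0.000725). The cytokine genes were named after their values were seen: Il1b had 0 counts in all 9 libraries and Tnf 26 counts in all, while Il6 was at 2.16 to 2.54 TPM up to day 8 and at 0.14 to 0.41 TPM from day 10 (-3.66, SE 0.94, adjusted p = 0.00702). Il6, with 231 counts in all, thus had its drop between days 8 and 10, as did the largest step of Ptgs2. Those days were also the widest step over all genes by median size, into the library with the fewest counts. A link between Il6 and Ptgs2 was not tested.

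**Figure D4:**
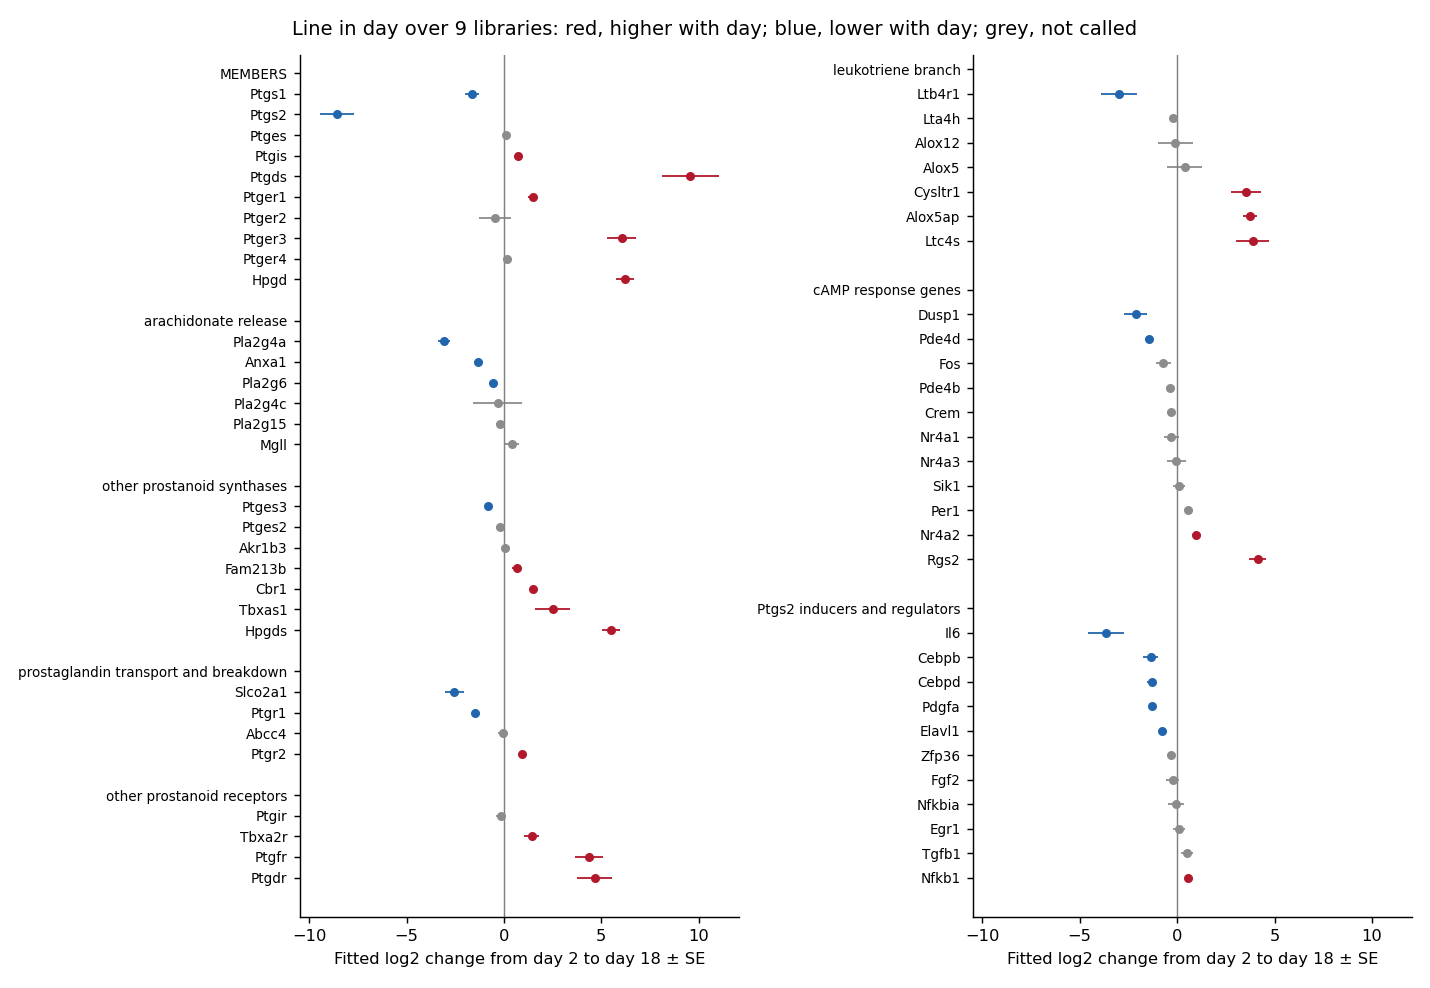
Fitted log2 change from day 2 to day 18 with its SE (horizontal axes) for the 10 genes, at the top left, and for the 50 tested genes of the 7 pathway lists, from a straight line in day over 9 libraries, with red for higher, blue for lower and grey for not called. Ptgs2 at -8.57 and Ptgds at 9.57 are the extremes of the plot, and the points of arachidonate release and of the Ptgs2 regulators lie mostly at or below 0.

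Markers of the cell types that the culture could hold moved with these genes, and their part in the results was not tested. The marker counts below stand beside 54.3% of all genes called by the line in day, 28.3% higher and 26.1% lower. Of 10 osteoblast markers 7 were higher with day and 0 lower, and all 10 were detected. Their summed level was 2018 to 3433 TPM on days 2 to 6 and 4149 to 5489 TPM on days 14 to 18, most of it Col1a1, a type I collagen chain, with 1526 TPM on day 2 and 4263 on day 18. Sp7, Alpl and Spp1, which are also osteoblast genes, were not called, and Sp7, an osteoblast transcription factor, was at 32.3 TPM on day 2 and 10.6 on day 18. Of 5 smooth muscle markers, also made by contractile fibroblasts, all 5 were lower, from 3037 to 6185 TPM early to 989 to 1133 TPM late, in the direction of Ptgs1 and Ptgs2.

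Macrophage and fat markers moved in the direction of Ptgds and Hpgd, as did the sums of most marker lists. Of 7 monocyte and macrophage markers 6 were higher and 0 lower, with a sum of 24.1 to 61.7 TPM early and 522 to 2013 TPM late, most of it Lyz2, lysozyme. All 5 adipocyte markers were higher, with a sum of 3.21 to 7.44 TPM early and 188 to 407 TPM late, and their sum was 6.51 TPM (day 8), 19.8 (day 10) and 103 (day 12), the days over which Ptgds first appeared. Of 6 leptomeningeal markers 4 were tested and 3 were higher, with a sum of 4.33 to 26.1 TPM early and 68.6 to 120 TPM late, led by Aldh1a2 late and by Crabp2 early. Slc6a13 and Slc22a6, which define those cells, had 40 and 15 counts in all.

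The remaining marker lists were less uniform. Both tested mast cell markers of 6 were higher, but the sum of the list was at most 1.76 TPM and Mcpt4, Tpsb2 and Fcer1a had 0 counts in every library. Of 7 osteoclast markers 5 were tested and 3 were higher, with a sum of 37.6 to 86.0 TPM early and 208 to 217 TPM late, most of it Ctsk, and with Calcr and Dcstamp at 0 counts. Among 5 platelet markers 4 were tested, 1 was higher and 1 lower. The lower one was Ppbp (log2 change -10.16, SE 1.34, adjusted p = 0.000182), which is also among the genes nearest to Ptgs2, whereas Gp9 had 2 counts in all. Endothelial markers (3 of 5 tested, 2 higher and 1 lower) and chondrocyte markers (5 tested, 3 higher and 1 lower) had sums of at most 12.1 and 198 TPM.

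**Figure D5:**
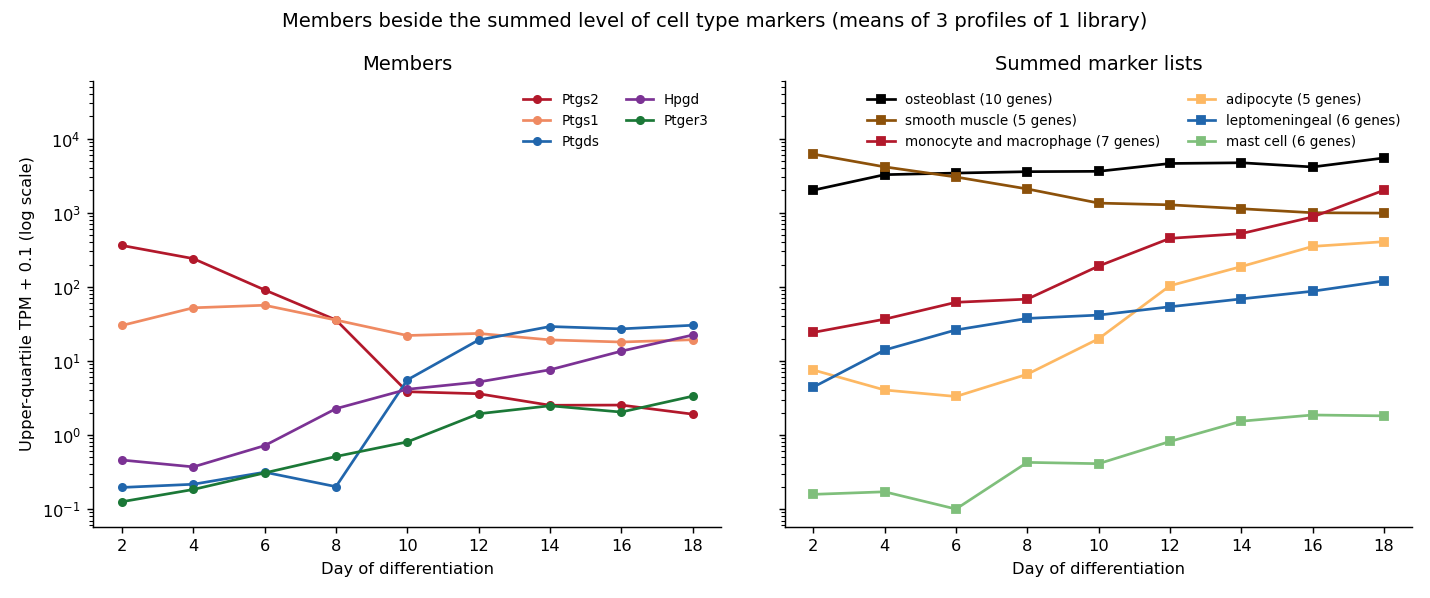
Upper-quartile TPM plus 0.1 on a log scale (vertical axis) by day (horizontal axes) for Ptgs1, Ptgs2, Ptgds, Ptger3 and Hpgd on the left and for the summed markers of 6 cell types on the right, each point the mean of 3 profiles of 1 library. The smooth muscle sum declines from 6185 to 989 TPM beside Ptgs2. The macrophage, adipocyte and leptomeningeal sums climb beside Ptgds and Hpgd, and so do the osteoblast and mast cell sums.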

How the data were processed

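Total RNA from 27 profiles of sorted calvarial cells, 3 for each of 9 days, was amplified (NuGEN Ovation), built into TruSeq libraries and sequenced by the authors, who used Bowtie 0.12.9 for alignment to NCBIM37 transcripts and RSEM 1.2.8 for quantification, per the processing notes of the submitters. The authors deposited RSEM's expected counts, which divide shared reads between genes, without normalization, and the TPM and FPKM values deposited beside them are scaled per effective length. Here the TPM of each profile was scaled so that its upper quartile, taken over values above 0, equalled the mean of the 27 quartiles, and gene names were taken from GENCODE on NCBIM37. Expected counts were summed over the 3 profiles of a day and rounded, giving 22470195 to 62009157 counts per library (median 43146793). A straight line in day was fitted with edgeR 4.0.16 in R 4.3.3 (upper-quartile factors, minimum count of 10, quasi-likelihood test, Benjamini-Hochberg adjusted p under 0.05 over 15659 genes). A residual of that fit mixes departures from the line with sampling, since no day has a replicate. Ratios of CPM carry exact binomial 95% intervals, for counting error only, and 3 counts were taken as the floor. On simulated data for the line, over 15385 genes, 71.1% of 197 changed genes were recovered and 2.78% of 144 calls were false. Few genes were changed there, all exactly along a line, so these rates do not carry over to the data, where 54.3% were called. The 10 genes, the pathway and marker lists and the tests were chosen with earlier results of these data known. Genes named were the 10, the 3 pathway genes of smallest p per list, further genes of a pathway step, and the 2 genes of most similar course to each of the 10. Alternatives were TMM factors, DESeq2 1.42.0, no count filter, the 27 profiles as samples, leaving out each replicate or day, early against late days, a spline in day, and TPM or FPKM as deposited.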

Additional observations from a re-analysis of the deposited data

How the results depend on the processing

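Under 19 alternatives (TMM, DESeq2, no filter, 27 profiles as samples, each replicate or day left out, early against late days, and a spline), genes following day numbered 7187 to 10881, beside 8510. Pathway genes called numbered 28, and 25 to 33. The labels number the 3 profiles of every day alike, so the 27 profiles were also fitted with the replicate block, which called 10881 genes, beside 10754 without it. Both fits treat the 3 profiles of 1 library as replicates, so these counts are too high. Among the alternatives with 1 library a day the largest count was 9350, under the spline. The numbers did not pair the profiles: same-numbered profiles deviated from their day means with a mean correlation of -0.00166, and 8 of 27 were closest to their own number. Leaving out 1 replicate, which is 1 of the 3 profiles of every library, gave 8194 to 8245 genes and 25 to 26 pathway genes. This removes reads only, so it tests depth and not variation between cultures. Of 188 recomputed log2 changes of the 10 genes, 172 stayed within 1 SE, and of 140 recomputed mean TPM values 72 moved by more than the SD over profiles. Ptgs2 ranged from -9.52 to -6.78, Ptgds from 7.77 to 11.67, and Ptgs1 from -2.05 to -0.91, the last under the spline. The ends -6.78 and 7.77 came from early against late days. That setting gives a difference between blocks of days, which spans less time than day 2 to day 18, so a smaller change is built in. Ptges, Ptger2 and Ptger4 took either sign. Without day 18 Ptges was at -0.03. The cause of the other shifts was not tested. Among the 3 genes named per pathway list, 387 of 391 tests kept their call, the other 4 all for Pla2g6, whose log2 change was -0.53 under the spline (adjusted p = 0.107, edgeR). Ltc4s gave no value in 7 of the 19 alternatives and Cysltr1 in 1, being under the count filter there. Arachidonate release had 2 genes higher under the spline. Depth limits Ptger2 on every day and Ptgds up to day 8. With 1 library a day, day and library cannot be told apart.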
